A study of Elaeis guineensis with 12 samples.

Results

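Pseudocarpel initials and carpel were compared within the flowers of 3 mantled oil palms, *Elaeis guineensis*. Of the 12 libraries of the series, all 6 with the phenotype label mantled were used: 3 of staminodia, which are the pseudocarpel initials of a mantled flower, and 3 of carpel. Each palm gave 1 library of each organ, so the organs were paired by the palm ID in the labels: M14M with M14F (palm 1), M15M with M15F (palm 2) and M15-2M with M15-2F (palm 3). All palms, mantled and normal, were clonal plants sampled at floral stage 3, and the organs were cut out of cryosections by laser capture. The ID of mantled palm 1 begins with P291, and the IDs of all other palms, mantled and normal, begin with P273. The labels do not explain this prefix, and whether the palms are of the same clone was not tested. The comparison set was the 6 libraries of normal flowers, again staminodia and carpel, which came from only 2 palms: normal palm 1 gave 2 libraries of each organ from parts of 1 inflorescence, and these were summed, and normal palm 2 gave 1 of each.

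The female flower of the oil palm carries a whorl of staminodia, sterile organs in the place of stamens, around a central gynoecium of fused carpels. In the mantled variant, which arises in tissue culture, the staminodia grow into supernumerary carpels around the true ones. In the general model of floral identity, B-class MADS-box factors acting with C-class factors specify stamens, and C-class factors without B-class factors specify carpels, so a change from stamen to carpel identity is the kind of change that loss of B-class activity causes in other plants. The comparison of pseudocarpel initials with carpel in the same flower asks what still separates the organs when one takes on the form of the other.

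Values are read counts per gene model. The count tables list coding features, and features that share a model number and differ only in a trailing part number were summed, which gave 26087 gene models, of which 21553 had a read in a mantled library. The files do not pair the model IDs with gene names, and 0 of the IDs matched the reference gene table. The floral regulators and heat shock proteins that the study's title names could therefore not be looked up, the labelled organs could not be checked against marker genes, and gene models are given by ID, a few for each direction, without the ending mRNA-1:cds that all IDs beginning with maker shown here share. Counts assigned to features were 2993249, 2560068 and 3980120 in the staminodia libraries of palms 1, 2 and 3, and 4568514, 8066978 and 2121145 in their carpel libraries. Staminodia were thus the shallower library in palms 1 and 2 and the deeper one in palm 3. Reads aligned to several places made up 16.7%, 9.98% and 10.5% of the counts listed in staminodia and 8.70%, 5.78% and 11.1% in carpel, so their share was higher in staminodia in palms 1 and 2 and lower in palm 3. Libraries were stranded and made from total RNA freed of ribosomal RNA, with reads of 2 kinds of length and instrument that the labels do not assign to libraries, and a batch of that kind could not be looked for. Levels below are CPM, counts scaled to a common library size with TMM factors.

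Among well-measured gene models, each of the 6 mantled libraries was most like the other organ of its own palm. Over the 3421 gene models whose mean log2(CPM + 1) was 6 or more, where counting error is smaller, staminodia and carpel of 1 palm had a Pearson r of log2(CPM + 1) of 0.943 in palm 1, 0.963 in palm 2 and 0.887 in palm 3. Staminodia of different palms were at 0.799 to 0.888 and carpels of different palms at 0.845 to 0.928, so for each library the same organ in another palm was less alike than the other organ in its own palm. Over all 14768 gene models tested the picture was mixed. Within-palm values were 0.908, 0.932 and 0.832 in palms 1, 2 and 3, staminodia of different palms stood at 0.79 to 0.827, and carpels of different palms at 0.861 to 0.918. There 3 libraries were not most like their own palm. The carpels of palms 1 and 3 were each most like the carpel of palm 2, the deepest library, and the staminodia of palm 3 were more like the carpels of palms 1 and 2, at 0.846 and 0.842, than like their own carpel, at 0.832. Gene models are not independent and r falls with shallow depth, so these values are descriptions. The first principal component, 34.2% of the variance, set palm 3 and palm 2 at opposite ends with both organs of each on the same side.

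**Figure D1:**
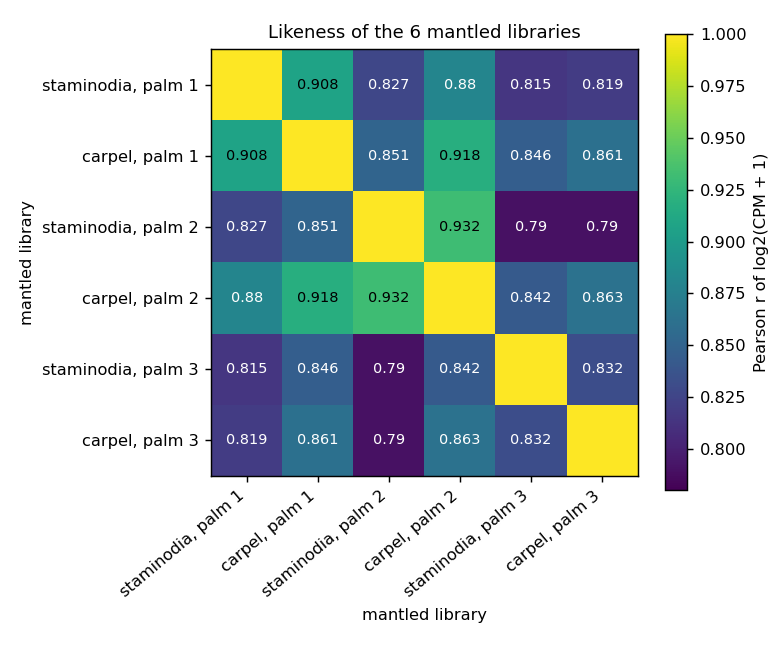
Pearson r of log2(CPM + 1) across 14768 gene models between the 6 mantled libraries, which are ordered by palm with staminodia before carpel. Within-palm values are 0.908, 0.932 and 0.832, and the lowest values, 0.79, join the staminodia of palm 2 with both libraries of palm 3.

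The same measure in a joint scaling with the normal palms gave an organ-to-organ r of 0.913, 0.937 and 0.844 in mantled palms 1, 2 and 3, and of 0.96 and 0.784 in normal palms 1 and 2, over 16800 gene models. Over these, the mantled values lay between those of the 2 normal palms. Over the 3342 with a mean log2(CPM + 1) of 6 or more, they were 0.944, 0.963 and 0.885. Normal palms 1 and 2 were at 0.961 and 0.872 there, so mantled palm 2 was the highest. By this measure the mantled and normal palms overlapped, and no difference between the phenotypes in how alike their organs were could be seen over the spread between palms. Normal palm 1, with the highest value over the 16800, is a sum of 2 libraries per organ. Normal palm 2, with the lowest value in both sets, had 2153546 assigned counts in staminodia and 2349579 in carpel.

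Few gene models were called between pseudocarpel initials and carpel. Of 14768 gene models tested by edgeR's quasi-likelihood method, which compared the organs within palms, 2 (0.0135%) had an adjusted p under 0.05. Both had lower values in staminodia, and 0 had higher values. At an unadjusted p under 0.05 it found 1008 gene models (6.83%), 499 higher and 509 lower, where 738 would be expected without any difference. DESeq2 called 100 gene models (0.677%), 60 higher (0.406%) and 40 lower (0.271%), and found 1078 (7.3%) at an unadjusted p under 0.05. It gave an adjusted p to only 3029 of the 14768, so its 100 calls were 3.3% of the gene models adjusted. For limma voom the numbers were 173 (1.17%), 97 higher (0.657%), 76 lower (0.515%) and 1234 (8.36%). The balance of called directions thus turned with the tool. Without palm 3 edgeR called 51 gene models, 18 higher and 33 lower, without palm 2 it called 1 and without palm 1 it called 2, and neither of these last settings kept a call made with all palms. With all 12 libraries in 1 fit it called 25, 14 higher and 11 lower, and with no replicate block 0, with 319 at an unadjusted p under 0.05. The 6 libraries leave 2 residual degrees of freedom, so the edgeR p-values rest largely on spread borrowed across gene models. In captured tissue of this kind, fewer cells that express a gene and less RNA per cell cannot be told apart.

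Gene model p5_sc00050_cds_300, on scaffold p5_sc00050, had the smallest p. It stood at 33.2, 41.5 and 63.9 CPM in staminodia of palms 1, 2 and 3, against 97.5, 123 and 224 CPM in carpel. Both organs were highest in palm 3, and every staminodia library was below every carpel library. The mean was 46.2 ± 15.8 CPM in staminodia and 148 ± 67.1 CPM in carpel (SD, n = 3 palms each), a log2 difference of -1.65 (SE 0.215, edgeR adjusted p = 0.0192), and the differences within palms on the log2(CPM + 1) scale were -1.52, -1.55 and -1.80. Of its 3 parts, 2 had enough reads to be tested, and both had lower values in staminodia in each palm. Part 1 had a log2 difference of -1.31 (SE 0.373, edgeR adjusted p = 0.44 among all features) and part 3 one of -2.01 (SE 0.286, adjusted p = 0.00935). Normal palms showed a difference of like size: 71.3 and 40.1 CPM in staminodia of normal palms 1 and 2, against 185 and 182 CPM in carpel. In the joint fit its log2 difference was -1.65 (SE 0.241) in mantled and -1.76 (SE 0.295) in normal palms, with an edgeR interaction of 0.11 (SE 0.374, adjusted p = 1).

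The other gene model called, maker-p5_sc00004-augustus-gene-42.49, was close to level across palms in carpel and lower in staminodia. It stood at 90.6, 73.6 and 49.0 CPM in staminodia of palms 1, 2 and 3, against 202, 201 and 213 CPM in carpel. The groups did not overlap, and the gap within a palm was widest in palm 3. Its means were 71.1 ± 20.9 CPM in staminodia and 206 ± 6.77 CPM in carpel (SD, n = 3 each), a log2 difference of -1.57 (SE 0.213, edgeR adjusted p = 0.0192). In normal palms it stood at 68.5 and 104 CPM in staminodia of normal palms 1 and 2, against 96.0 and 231 CPM in carpel. The direction was the same, with a log2 difference of -1.57 (SE 0.225) in mantled and -0.82 (SE 0.269) in normal palms of the joint fit, and the edgeR interaction was -0.75 (SE 0.348, adjusted p = 1). Both calls were lost without palm 1, at log2 differences of -1.70 and -1.79 and adjusted p of 0.105 and 0.101, and without palm 2, at -1.70 and -1.65 and 0.0561 for both, in the order described. Their log2 differences with no replicate block were -1.67 and -1.53, also not called (adjusted p = 1 for both).

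Among gene models with higher values in staminodia, none passed edgeR's threshold. The smallest p belonged to p5_sc00102_cds_10, at 490, 428 and 213 CPM in staminodia of palms 1, 2 and 3, against 261, 255 and 105 CPM in carpel. Each palm had more in its staminodia, while palm 3 was low in both organs, so the groups overlapped. Its means were 377 ± 145 CPM in staminodia and 207 ± 88.6 CPM in carpel (SD, n = 3 each), a log2 difference of 0.89 (SE 0.143, edgeR adjusted p = 0.0658). Both of its parts had higher values in staminodia in each palm, with a log2 difference of 1.21 (SE 0.214, edgeR adjusted p = 0.0439 among all features) in part 1 and of 0.62 (SE 0.179, adjusted p = 0.444) in part 2. Normal palms were divided, at 262 and 366 CPM in staminodia of normal palms 1 and 2, against 129 and 389 CPM in carpel, and its edgeR interaction was 0.42 (SE 0.279, adjusted p = 1).

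The next gene model in that direction, maker-p5_sc00147-augustus-gene-10.22, stood at 293, 426 and 99.0 CPM in staminodia of palms 1, 2 and 3, against 146, 199 and 57.4 CPM in carpel. The order of the palms was the same in both organs, and the groups overlapped through palm 3. The means were 272.7 ± 164 CPM in staminodia and 134 ± 71.8 CPM in carpel (SD, n = 3 each), with a log2 difference of 0.97 (SE 0.161, edgeR adjusted p = 0.0658). In normal palms it stood at 174 and 95 CPM in staminodia of normal palms 1 and 2, against 68.0 and 39.4 CPM in carpel, a log2 difference of 1.32 (SE 0.244) with an edgeR interaction of -0.35 (SE 0.308, adjusted p = 1). Both gene models were called in DESeq2, limma voom, without a filter, with all 12 libraries in 1 fit and without palm 3. Neither was called in the other alternatives. Without palm 1 the edgeR adjusted p was 0.485 for both, and without palm 2 it was 0.176 and 0.514, in the order described. Log2 differences over 11 alternatives were 0.81 to 0.95 for p5_sc00102_cds_10 and 0.88 to 1.03 for maker-p5_sc00147-augustus-gene-10.22.

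**Figure D2:**
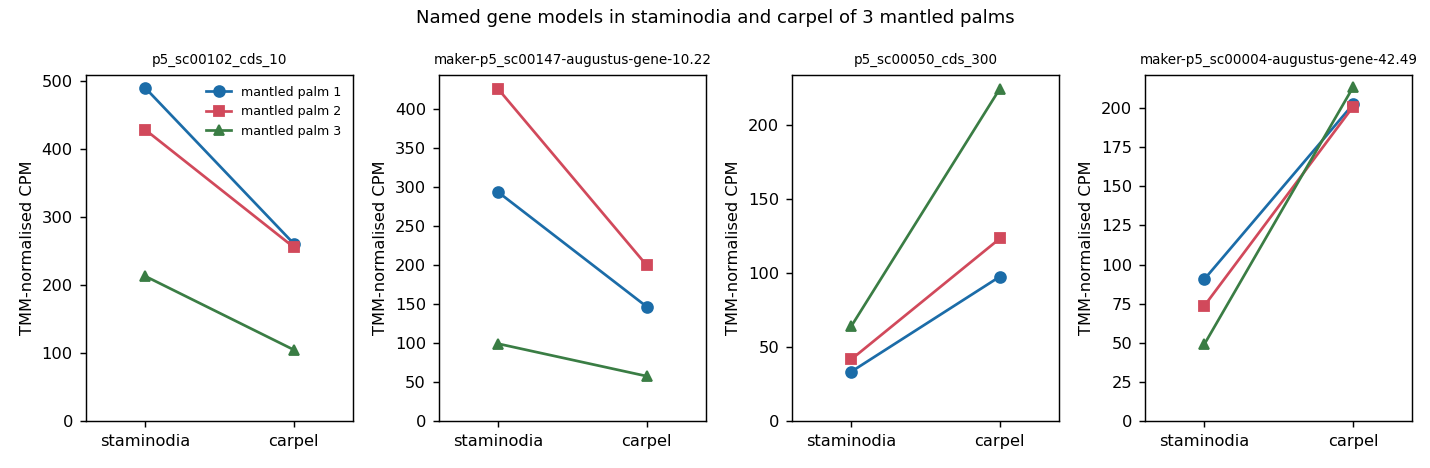
TMM-normalised CPM, on linear axes from 0, of the 4 named gene models in staminodia (left) and carpel (right), with lines joining the organs of each mantled palm. The 2 left panels fall toward carpel and the 2 right panels rise toward carpel in all 3 palms; in the rightmost panel carpel lies between 201 and 213 CPM.

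The differences were measured more closely where levels were high than where they were low. Over the 3421 gene models whose mean log2(CPM + 1) was 6 or more, the 95% interval of the log2 difference in limma voom lay within -1 and 1, that is within 2-fold either way, for 3295 (96.3%). Over the 11347 gene models below that level it did so for 2624 (23.1%), where the median half-width of the interval was 1.07. These intervals are pointwise, not corrected for the number of gene models. For most gene models of low level the interval thus reached past 2-fold, and a missing call there does not show that the organs were alike. Intervals lying wholly beyond 2-fold were found for 18 of all tested gene models.

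**Figure D3:**
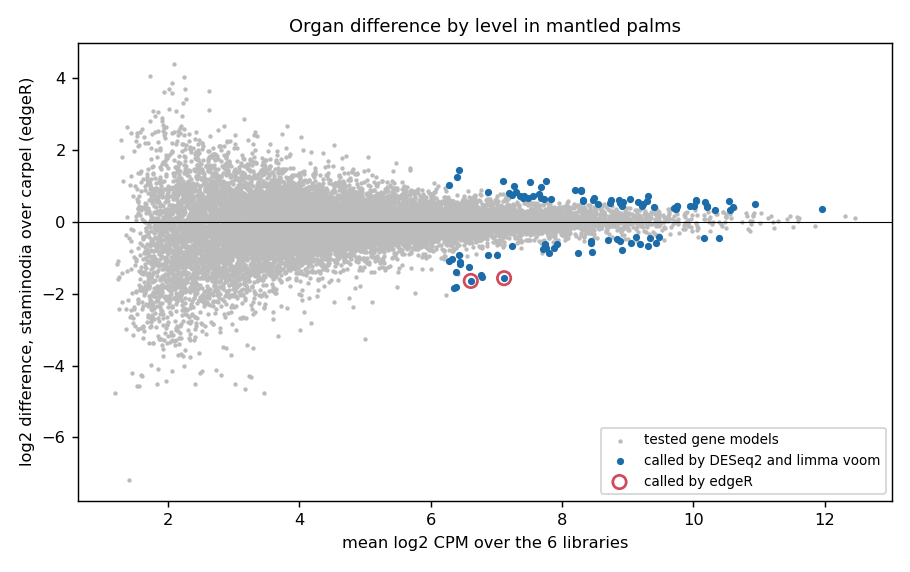
The log2 difference, staminodia over carpel, from edgeR (vertical) against the mean log2 CPM over the 6 mantled libraries (horizontal) for 14768 gene models, with the 99 called by both DESeq2 and limma voom and the 2 called by edgeR marked. The spread narrows to the right, and all 99 lie at a mean log2 CPM of 6.28 or more.

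The organ difference had 1 direction in all 3 palms in a minority of gene models. Of 14768 tested gene models, 2162 had higher and 2269 lower values in staminodia in all 3 palms, together 30%. At a mean log2(CPM + 1) of 6 or more, called the higher level below, the share was 36.2%, with 732 higher and 508 lower of 3421. Differences past 1 on the log2(CPM + 1) scale in each palm were seen in 34 gene models with higher and 109 with lower values in staminodia, and at the higher level in 0 and 2. These counts turned on the pseudocount: they were 59 and 158 with 0.1 in place of 1, and 3 and 20 with 5. Staminodia libraries wholly above carpel libraries were found in 581 gene models (3.93%) and wholly below in 664 (4.5%), 1245 in all (8.43%). These counts are descriptions of the 6 libraries, with no test, and do not by themselves show an organ difference.

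Palm 3 had the widest organ differences. At the higher level the SD over gene models of the log2 difference, staminodia minus carpel, was 0.374 in palm 1, 0.305 in palm 2 and 0.533 in palm 3. Differences past 1 in that set numbered 17 higher and 23 lower in staminodia in palm 1, 1 and 17 in palm 2, and 109 and 92 in palm 3. Palm 3 also held the shallowest of the 6 libraries, its carpel with 2121145 counts, and the part of depth in this spread was not tested. Across 3342 gene models of the higher level in the joint scaling, the organ differences of palms 1 and 2 had a Pearson r of 0.232, those of palms 1 and 3 of 0.193 and those of palms 2 and 3 of 0.33. Between mantled and normal palms, which share no library, the 6 values ran from 0.101 to 0.347, and between the 2 normal palms r was 0.245. Over all 16800 gene models the values for the same mantled pairs were lower, at 0.068, 0.0404 and 0.0722. There r ran from 0.0153 to 0.08 between phenotypes and was 0.0714 between the normal palms. In both sets the values within the mantled palms lay inside the range of those between phenotypes.

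The 51 gene models called from palms 1 and 2 alone could be read in palm 3, which that fit did not use. All 18 with higher values in staminodia had higher values there in palm 3 too, and 29 of the 33 with lower values had lower values. Among all gene models of that fit, the share with the same direction in palm 3 was 53.3% for those higher and 52.6% for those lower. The median log2 difference of the 18 was 0.66 in the fit and 0.59 in palm 3, and that of the 33 was -1.27 in the fit and -0.61 in palm 3. These gene models stood at a median log2 CPM of 7.52, above the 4.48 of all gene models tested in the 3 palms, and direction is better measured at such levels, so the shares of all gene models are not like for like. Only this fit, the one with the most calls, was read in the palm left out. The fits without palm 1 and without palm 2, with 2 and 1 calls, were not. Palm 3 is only 1 palm with 1 library of each organ, and gene models are not independent, so these counts are descriptions.

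A wider set was given by the 99 gene models that both DESeq2 and limma voom called, 59 higher and 40 lower in staminodia. This set was chosen after the data were seen, and it lies at high levels by construction: DESeq2's filter on mean counts left 3029 gene models with an adjusted p. The log2 differences ran in size from 0.32 to 1.84, with medians of 0.61 and -0.74 for those higher and lower, and 18 exceeded 2-fold. In 98 of the 99 the 3 mantled palms had 1 direction, which follows in large part from the choice. edgeR called 2 of the 99, and its adjusted p reached 0.461 among the rest. The 99 lay on 71 scaffolds, with 8 on the leading one, p5_sc00001, which held 546 of the tested gene models (3.7%).

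In normal flowers, whose libraries took no part in choosing the 99, 38 of the 59 gene models higher in mantled staminodia (64.4%) had higher values in staminodia in both normal palms, against 30.5% of all gene models with higher values in mantled staminodia. Of the 40 lower in mantled staminodia, 21 (52.5%) had lower values in both normal palms, against 28.3% of all gene models with lower values. The 99 stand at higher levels than the gene models they are set against, a median log2 CPM of 8.32 against 4.48, so these shares too are not like for like. Median log2 differences in the joint fit were 0.61 in mantled and 0.42 in normal palms for the 59, and -0.73 in mantled and -0.17 in normal palms for the 40. A smaller median in normal palms is partly built in, since the set was picked on mantled palms. The interaction, which tests the difference between phenotypes itself, was called in edgeR for 1 of the 99.

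**Figure D4:**
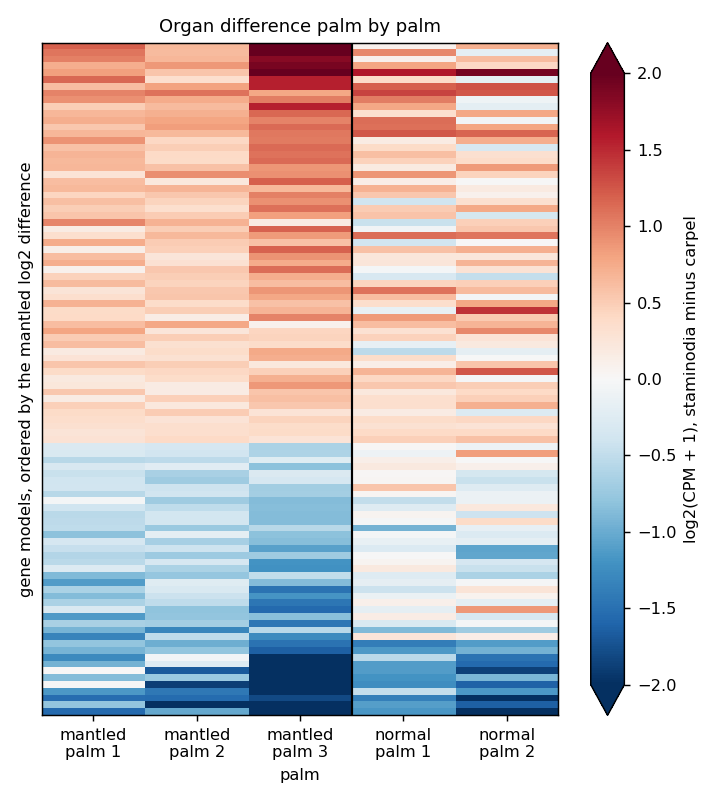
Difference of log2(CPM + 1), staminodia minus carpel, for 99 gene models (rows, ordered by the mantled log2 difference) in mantled palms 1 to 3 and normal palms 1 and 2 (columns), with colours capped at -2 and 2. Mantled palm 3 has the strongest colours, and in the normal palms, which did not enter the choice, 38 of the 59 upper and 21 of the 40 lower gene models keep the direction in both.

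Read counts that were present in 1 organ only were found on the carpel side. In 21 of 26087 gene models every mantled staminodia library held 0 reads and every mantled carpel library at least 5, and in 0 gene models was it the other way round. The carpel-only count was 40 with a minimum of 3 reads, 6 with 10 reads and 5 with 2 CPM. The carpel reads of these 21 summed to 16 to 67 over the 3 palms, with a median of 34, and 15 of them had under 10 reads in at least 1 carpel library. Taking 3 counts over the 3 staminodia libraries as the floor, their share of carpel reads was 3.45-fold to 14.4-fold that floor, which covers counting error only. The 21 were picked for their 0 staminodia reads, so these values are not a bound on how much lower they are in staminodia. Staminodia libraries together held 9533437 assigned reads and carpel libraries 14756637. Staminodia was the shallower library in palms 1 and 2 and the deeper one in palm 3, and the part of depth in the 21 was not tested. Only 1 of the 21 passed edgeR's filter on low counts, with an edgeR adjusted p of 0.617. In normal flowers 19 of the 21 had reads in staminodia of at least 1 palm, so these 19 were not restricted to carpel there. Reads in staminodia of both normal palms were seen in 5 of the 21, and reads in carpel of both in 4. The other 2 had 0 reads in normal staminodia. Of these, p5_sc00001_cds_1288 had 9 and 2 reads in carpel of normal palms 1 and 2, and p5_sc00025_cds_115 had 0 in both. Gene models with any read numbered 17594, 16538 and 16444 in mantled staminodia of palms 1, 2 and 3, against 18838, 18959 and 16721 in mantled carpel, lower in staminodia in each palm, and the part of this in the 21 was not tested.

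Within gene models, no difference in the use of parts was detected. Of 4152 gene models with 2 or more tested parts, edgeR's test of differential part use called 0 at an adjusted p of 0.05 (0%), with 78 (1.88%) at an unadjusted p under 0.05, fewer than the 208 expected without any difference, and limma diffSplice also called 0. With fewer small p-values than expected without a difference, the 0 calls do not show that parts were used alike in the organs. The smallest p belonged to p5_sc00239_cds_72. Its part 1 stood at 2.49, 6.04 and 10.8 CPM in staminodia of palms 1, 2 and 3, against 17.2, 22.0 and 44.1 CPM in carpel, while its part 3 stood at 19.2, 10.9 and 25.3 CPM in staminodia, against 9.49, 10.3 and 29.9 CPM in carpel. Part 1 had lower values in staminodia in every palm and part 3 had not, yet the adjusted p of the gene model was 0.963.

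The organ contrast itself was compared between mantled and normal flowers by edgeR's test of the interaction, with palm as a block. It called 2 of 16800 gene models (0.0119%), 1 positive (0.00595%) and 1 negative (0.00595%). An unadjusted p under 0.05 was found for 568 (3.38%), fewer than the 840 expected without any difference. With so few small p-values, a missing call does not show that the organ contrast was alike in both phenotypes. In p5_sc00074_cds_47, mantled staminodia stood at 1479, 1590 and 2163 CPM in palms 1, 2 and 3, against 1057, 1132 and 1302 CPM in mantled carpel. Normal staminodia stood at 878 and 596 CPM in normal palms 1 and 2, against 1101 and 828 CPM in normal carpel. Staminodia had more than carpel in each of the 3 mantled palms and less in each of the 2 normal palms. The log2 difference was 0.57 (SE 0.117) in mantled and -0.40 (SE 0.143) in normal palms, an interaction of 0.97 (SE 0.185, edgeR adjusted p = 0.044). In the fit of the mantled palms alone its adjusted p was 0.107.

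In the other gene model, maker-p5_sc00322-snap-gene-9.52, the mantled palms were divided, at 57.2, 124 and 92.3 CPM in staminodia against 71.4, 80.7 and 50.1 CPM in carpel of palms 1, 2 and 3. Palm 1 had less in staminodia and palms 2 and 3 had more, with differences of -0.33, 0.63 and 0.87 on the log2(CPM + 1) scale. Normal palms 1 and 2 stood at 997 and 917 CPM in staminodia, against 137 and 228 CPM in carpel. The log2 difference was 0.39 (SE 0.208) in mantled and 2.44 (SE 0.254) in normal palms, an interaction of -2.04 (SE 0.322, edgeR adjusted p = 0.0216). Neither interaction was called without mantled palm 1 or 3, where edgeR called 0 gene models in all, with 400 and 475 at an unadjusted p under 0.05. Without mantled palm 1 that of p5_sc00074_cds_47 was 1.01 (edgeR adjusted p = 0.241) and that of maker-p5_sc00322-snap-gene-9.52 was -1.69 (adjusted p = 0.0839). Without mantled palm 3 they were 0.87 (edgeR adjusted p = 0.628) and -2.29 (adjusted p = 0.0634), so both kept their direction. That of p5_sc00074_cds_47 was also not called without normal palm 2 (0.90, edgeR adjusted p = 0.278). Without normal palm 1 the interaction called 499 gene models. With no replicate block it called 0, with 224 at an unadjusted p under 0.05, and the 2 interactions stood at 0.97 and -1.96 (adjusted p = 1 for both).

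**Figure D5:**
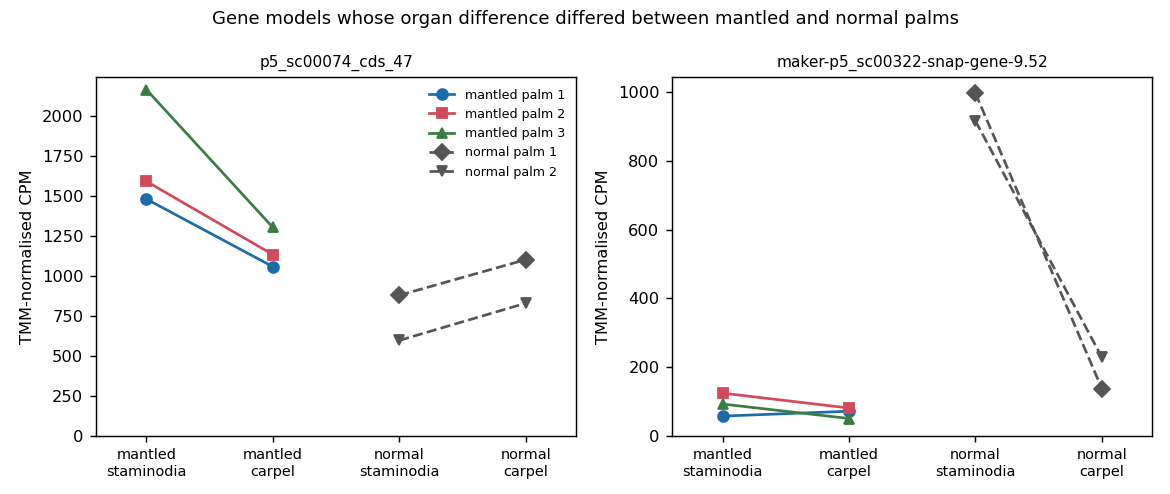
TMM-normalised CPM in the joint scaling, on linear axes from 0, of the 2 gene models called in the interaction, with lines joining staminodia and carpel of each palm, mantled palms left and normal palms right. In the left panel mantled lines fall toward carpel and normal lines rise; in the right panel only the normal lines, at 997 and 917 CPM in staminodia, fall steeply.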

How the data were processed

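The authors deposited raw read counts per coding feature, 1 table per library, with no normalization. Tools named in the submitters' processing notes are HTSeq 0.6.1p1 and TopHat2 2.0.13, with Trim Galore, cutadapt and CASAVA 1.8.2. For build, annotation and strand setting the entry is "not given in the sources used here", and overlapping and antisense genes may share reads. Rows for unassigned reads were dropped. In the mantled libraries reads in no feature made up 46.9% to 50.5% and ambiguous reads 11.1% to 13.5%. Of 100342 features, 92649 with a part number were summed to 18394 gene models, a reading of the IDs that no annotation was at hand to check. The 6 mantled libraries were fitted with edgeR 4.0.16 (R 4.3.3): filterByExpr with a minimum count of 10, TMM, robust glmQLFit and glmQLFTest with palm as a block, and Benjamini-Hochberg adjustment over all gene models tested, with a threshold of 0.05. Each SE is the absolute log2 value over the square root of F. The interaction used all libraries summed per palm and organ. Part use was tested with diffSpliceDGE. Alternatives used DESeq2 1.42.0, limma 3.58.1, other filters and scaling, no block, and palms left out in turn. The steps were also run on counts simulated with known changes, which does not show how the tests perform on these data.

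The labels give both organs the same palm ID, so palms pair them. Deviations from the organ means correlated at 0.291, 0.474 and 0.273 within palms 1, 2 and 3, against at most -0.0721 between palms. The organ means are of only 3 palms, so values above 0 within palms push those between palms below 0. The contrast of the 2 is thus partly built in. Named gene models are those of smallest p in each direction with mean log2 CPM no lower than 1 and, for the organ contrast, 1 direction in all 3 palms (2 a direction there, 1 a direction for the interaction and 1 for parts). Further gene lists and organ markers were listed but could not be run without gene names. The gene lists, the comparison and the rules were chosen with earlier results of these data known. With 3 pairs an exact two-sided permutation test of a single value cannot go below 0.25, so none was made. The sources name no molecular identifiers, so floors cover counting error only, and p-values rest on 3 palms.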

Additional observations from a re-analysis of the deposited data

Results flagged for a closer look

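The organ difference of p5_sc00074_cds_47 differed between mantled and normal palms by an interaction of 0.97 on the log2 scale, with staminodia above carpel in 3 of 3 mantled palms and below in 2 of 2 normal palms. That of maker-p5_sc00322-snap-gene-9.52 differed by -2.04, with mantled palms divided in direction and staminodia above carpel in 2 of 2 normal palms. Both passed the test of the difference itself in edgeR (adjusted p = 0.044 and 0.0216). Both were also called in DESeq2, in limma voom, with median-ratio size factors, without a filter on low counts and without mantled palm 2. Neither was called without mantled palm 1, without mantled palm 3 or with no replicate block. That of p5_sc00074_cds_47 was also not called without normal palm 2. The organ difference of p5_sc00074_cds_47 in normal palms had an edgeR adjusted p of 0.526 in the joint fit.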

How the results depend on the processing

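The count of gene models called between mantled staminodia and carpel, 2 in edgeR, was also 2 with median-ratio size factors, a minimum count of 30 and without robust dispersions. It was 113 without a filter on low counts (44 higher, 69 lower), 100 in DESeq2, 173 in limma voom, 99 in both of these tools, 25 with all 12 libraries in 1 fit, 11 with features as deposited (5 higher, 6 lower) and 0 with no replicate block, and it ran from 1 to 51 with a palm left out. The interaction count, also 2, was 6 without a filter, 11 in DESeq2 (4 positive, 7 negative), 9 in limma voom, 7 with features as deposited and 0 with no replicate block. It ran from 0 to 7 with a mantled palm left out, was 3 without normal replicate 3 and 499 without normal replicates 1 and 2 (194 positive, 305 negative), a fit with 1 normal palm, whose spread is taken to be that of the mantled palms. The count of parts used differently was 0 under all 7 alternatives. Gene models with 1 direction in all palms numbered 1240 at the higher level, where fewer were counted, against 4431. The carpel-only count of 21 was 40 with a minimum of 3 reads, 6 with 10 reads and 5 with 2 CPM, and the staminodia-only count was 0 in each. The mean within-palm r of mantled palms, 0.898, was 0.833 with a pseudocount of 0.1. Thresholds by level, by 2 CPM and the set shared by 2 tools were chosen after seeing the data. No log2 value of a named gene model changed sign under its alternatives. Why counts moved with the tool, the filter or the palms was not tested. For most gene models of low level the interval of the difference reached past 2-fold, and the part of counting error in this was not separated from the spread between palms.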
